A study of Homo sapiens with 12 samples.

Results

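The E2F transcription factor family, E2F1 to E2F8, was followed across 4 groups of RBE cells, an established human cholangiocarcinoma (bile duct cancer) line. The 8 genes were chosen by their symbol out of 55773 gene entries, each had 1 entry, and all 8 were among the 15691 genes that passed the filter on low counts. AG120_Nutlin cells had 22 days of 5 µM AG-120 and 72 hours of 5 µM Nutlin, and vehicle_Nutlin cells had DMSO over the same days and the same Nutlin step. AG120 cells had the same AG-120 and then DMSO in place of Nutlin, and vehicle cells had DMSO in both steps. AG-120 (ivosidenib) inhibits mutant IDH1 and was used to block production of the metabolite 2-HG, and Nutlin blocks MDM2. For the E2F genes the question of this design is whether their response to Nutlin differs with AG-120. Each group held 3 poly(A) RNA-seq libraries of this single line. Whether they came from separate cultures is not in the labels, and p-values then measure only the spread of these samples, which may be technical.

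E2F proteins bind the promoters of genes for DNA synthesis and cell division. E2F1, E2F2 and E2F3 are the activators, which pair with a DP protein and are held inactive by the retinoblastoma protein until cyclin-dependent kinases phosphorylate it. E2F4 and E2F5 act mainly as repressors in resting cells, bound to the RB relatives p107 and p130, and E2F6 represses through Polycomb proteins without RB. E2F7 and E2F8 are atypical members that bind DNA without DP, repress E2F targets and restrain E2F1. The inhibitor p21 blocks the kinases that free E2F1 to E2F3.

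Promoters of 4 members whose RNA responded differently to Nutlin are shown here, so that the letters E2F proteins are known to bind can be set beside the values that follow. Each line gives the 250 bases before the annotated start (RefSeq, GRCh38.p14, read 5′ to 3′ on the strand of the gene). They lie at chr20:33686386-33686635 (minus strand) for E2F1, chr1:23531234-23531483 (minus strand) for E2F2, chr6:20401629-20401878 (plus strand) for the first of the E2F3 starts, and chr12:77065570-77065819 (minus strand) for E2F7. Capitals mark an E2F motif or a CCAAT box. The E2F motif searched was TTTGGCG, or the same letters with CG, CC or GC in place of the GG pair. Both were searched on either strand, and a match on the other strand reads in reverse, as ATTGG does for the CCAAT box.
E2F1: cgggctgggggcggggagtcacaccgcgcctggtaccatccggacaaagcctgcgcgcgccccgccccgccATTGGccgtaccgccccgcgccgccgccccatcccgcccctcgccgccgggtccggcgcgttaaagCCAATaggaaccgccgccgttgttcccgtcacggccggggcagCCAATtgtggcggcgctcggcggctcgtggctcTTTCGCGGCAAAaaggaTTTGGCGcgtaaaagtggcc
E2F2: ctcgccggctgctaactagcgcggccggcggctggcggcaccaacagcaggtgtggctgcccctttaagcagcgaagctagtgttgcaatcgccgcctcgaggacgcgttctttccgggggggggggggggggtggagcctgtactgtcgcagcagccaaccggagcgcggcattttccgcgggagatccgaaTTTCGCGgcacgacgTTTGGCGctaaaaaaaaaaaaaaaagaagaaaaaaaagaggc
E2F3: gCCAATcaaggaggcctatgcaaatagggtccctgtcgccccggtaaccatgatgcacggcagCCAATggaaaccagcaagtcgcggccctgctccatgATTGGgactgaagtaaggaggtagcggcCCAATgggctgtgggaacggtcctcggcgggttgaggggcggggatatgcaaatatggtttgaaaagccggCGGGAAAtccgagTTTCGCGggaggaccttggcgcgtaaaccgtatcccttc
E2F7: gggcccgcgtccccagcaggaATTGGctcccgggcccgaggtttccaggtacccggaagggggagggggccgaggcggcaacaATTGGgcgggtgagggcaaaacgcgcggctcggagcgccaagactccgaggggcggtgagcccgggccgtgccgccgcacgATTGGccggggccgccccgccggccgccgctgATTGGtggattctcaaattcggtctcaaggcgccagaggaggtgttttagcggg

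Of the 8 members 6 had a promoter entry, with 7 entries in all because E2F3 has 2 starts. E2F1 held 3 E2F motifs, of which the first overlaps the next on the other strand, at positions -37 to -31, -32 to -26 and -20 to -14 from the start. E2F2 held 2, and the first E2F3 start also 2. The stricter form of the motif, with a C after those 7 letters, matched at 2 places in E2F1 and at 1 in each of E2F2 and the first E2F3 start. It occurs in 3.31% of 35116 promoters of the same 300 bases (250 before and 50 after the start), and the 7-letter form, which was searched after the sequences had been seen, in 8.67%. E2F7 held no E2F motif and 4 CCAAT boxes, a motif found in 34.6% of promoters. E2F1 held 3 CCAAT boxes and the first E2F3 start held 4. E2F6 held 2 of the 7-letter E2F motifs and no stricter one, and no E2F motif was found for E2F4 or the second E2F3 start. The CHR element (TTTGAA), present in 15.2% of promoters, was found at the first E2F3 start alone. A match is a description of the letters and not a binding site.

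Library totals ran between 16840161 and 27499433 counts. MDM2, the protein that Nutlin binds, and CDKN1A, which encodes p21, were high in every Nutlin library: MDM2 averaged 3343 CPM in AG120_Nutlin, 2848 CPM in vehicle_Nutlin, 163 CPM in AG120 and 146 CPM in vehicle cells. CPM here is the count scaled by library size and TMM factor. Among biliary epithelial markers (KRT7, KRT8, KRT18, KRT19, EPCAM and SOX9) all 6 were above 1 CPM in every group. Their sum was 4826 to 5080 CPM in AG120_Nutlin, 6183 to 8105 CPM in vehicle_Nutlin, 6091 to 7758 CPM in AG120 and 5421 to 5768 CPM in vehicle. Most of it was KRT7, KRT8 and KRT19, and the markers did not move together. With Nutlin the means of EPCAM, KRT7 and KRT18 were lower in both backgrounds, and those of KRT19 and SOX9 were higher. KRT8 was lower in AG-120 cells and higher in vehicle cells. EPCAM averaged 16.8, 17.2, 59.5 and 48.2 CPM in the same order of groups. Fibroblast markers summed to 2.41 to 3.16, 2.82 to 5.29, 38.6 to 43.4 and 36.0 to 39.6 CPM in the same order of groups, nearly all of it COL1A1 and PDGFRB, and DCN and LUM were at 0 throughout. Hepatocyte markers summed to 315 to 325, 258 to 329, 152 to 167 and 114 to 127 CPM in that order, nearly all of it SERPINA1, with APOB at 0 throughout and ALB at no more than 0.170 CPM in any library. The mitochondrially encoded share of counts also moved with Nutlin, at 4.11% to 4.42%, 1.71% to 3.45%, 1.32% to 1.74% and 1.02% to 1.35% in that order. The part of these shifts in the results below was not tested. A set of 3 libraries, vehicle_Nutlin replicates 2 and 3 and AG120 replicate 1, was taken as standing apart from an earlier reading of these data. The first of these had 11.8%, the second 15% and the third 4.64% of genes more than 2-fold away from the mean of the remaining libraries of the group. Vehicle_Nutlin replicate 1 had 7.58% by this measure, more than AG120 replicate 1, and was measured against the mean of the 2 named libraries of its group. It is the only vehicle_Nutlin library in the fits without the 3, so these fits cannot show whether it is typical of its group. The other 8 libraries had between 1.77% and 3.1%. Results of the members that rest on the 3 libraries are given with and without them. Among the pathway lists below this was done for the E2F targets of S phase only. Called counts for the G1 cyclins and kinases, the CDK inhibitors and the E2F-linked apoptosis genes also changed without the 3 libraries. For these lists the counts are given with all libraries only.

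Per length, the family as a whole was lower after Nutlin and its make-up differed. Summed over the 8 genes, RPKM (CPM per kilobase of annotated exon) stood at 67.2 ± 1.92 in AG120_Nutlin, 65.1 ± 8.49 in vehicle_Nutlin, 97.7 ± 5.36 in AG120 and 118 ± 1.22 in vehicle cells (SD, n = 3 each). The activators E2F1 to E2F3 held 14.2% and 16.4% of that sum in AG120_Nutlin and vehicle_Nutlin cells, against 43.0% and 43.1% in AG120 and vehicle cells. The repressors E2F4 to E2F6 held 52.4% and 61.2% with Nutlin, against 41.3% and 41.2% without it. The atypical E2F7 and E2F8 held 33.4% and 22.4% with Nutlin, against 15.7% and 15.7% without it. In bulk RNA, fewer cycling cells and less RNA per cell cannot be told apart.

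**Figure D1:**
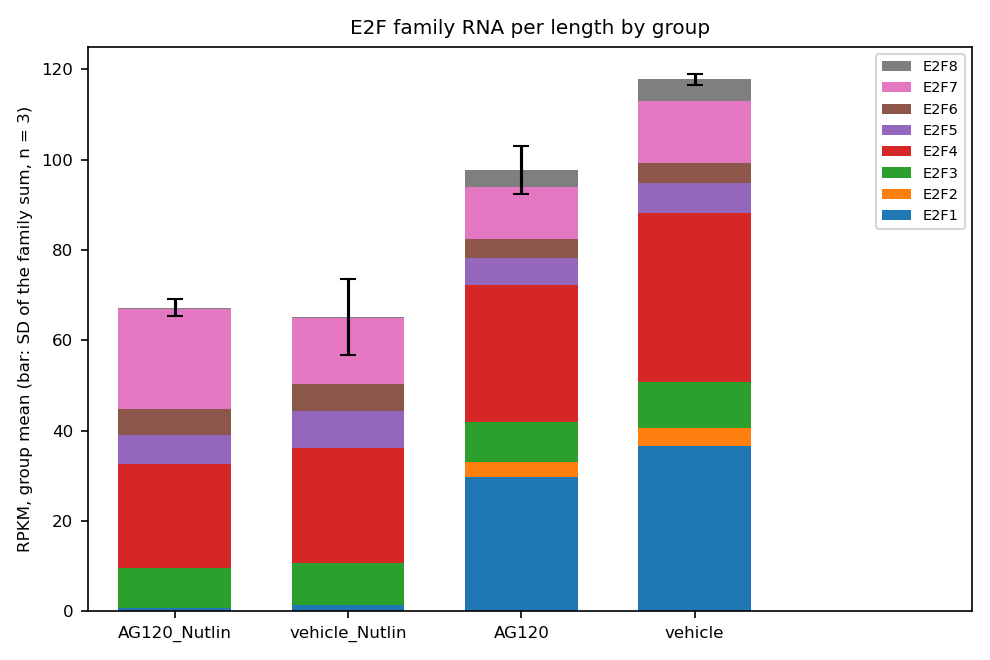
Stacked bars give the mean RPKM of each E2F gene in the 4 groups (3 libraries each) and the error bar the SD of the family sum. The E2F1 layer is 0.651 RPKM in AG120_Nutlin and 1.43 RPKM in vehicle_Nutlin cells, against 29.6 RPKM in AG120 and 36.6 RPKM in vehicle cells, and the E2F7 layer is tallest in AG120_Nutlin cells at 22.0 RPKM.

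The order of the members by RPKM changed with Nutlin. In AG120_Nutlin cells E2F4 (23.0 RPKM) and E2F7 (22.0 RPKM) came first and overlapped, followed by E2F3 (8.89), E2F5 (6.40) and E2F6 (5.89), of which the last 2 overlapped. E2F1 (0.651), E2F8 (0.434) and E2F2 (0.0171 RPKM) came last there. In vehicle_Nutlin cells E2F4 (25.5 RPKM) stood above E2F7 (14.7), but E2F7, E2F3 (9.22) and E2F5 (8.11 RPKM) overlapped in turn. In AG120 cells the order was E2F4 (30.3) and E2F1 (29.6), which overlapped, then E2F7 (11.4), E2F3 (9.0), E2F5 (6.04), E2F6 (4.21), E2F8 (3.83) and E2F2 (3.28 RPKM), with E2F6 and E2F8 overlapping. Vehicle cells had E2F4 (37.4) and E2F1 (36.6) overlapping at the top, then E2F7 (13.7), E2F3 (10.2), E2F5 (6.65), E2F8 (4.79), E2F6 (4.46) and E2F2 (3.90 RPKM), with E2F6 and E2F2 overlapping. E2F7 RNA therefore stood at 24.6 to 43.2 times E2F1 RNA per length in AG120_Nutlin libraries and at 8.74 to 13 times in vehicle_Nutlin libraries. The same ratio was 0.366 to 0.426 in AG120 and 0.356 to 0.386 in vehicle libraries, so no Nutlin library overlapped one without Nutlin.

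E2F1 (hg19 chromosome 20, 32263489 to 32274210), the activator best known for driving entry into S phase, was low in every Nutlin library. It had 1.33, 1.33 and 2.23 CPM in AG120_Nutlin cells and 3.39, 5.03 and 2.31 CPM in vehicle_Nutlin cells. AG120 cells had 77.6, 71.1 and 73.9 CPM, and vehicle cells had 90.9, 92.0 and 92.1 CPM. The libraries with and without Nutlin were far apart, and each group also kept clear of its counterpart without AG-120. Nutlin lowered E2F1 45.6-fold in AG-120 cells, a log2 fold change of -5.51 (SE 0.25, adjusted p = 1.18e-09, edgeR quasi-likelihood test with Benjamini-Hochberg adjustment). In vehicle cells it lowered E2F1 26.0-fold, a log2 fold change of -4.70 (SE 0.23, adjusted p = 2.56e-09).

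Between the Nutlin groups E2F1 was 2.16-fold lower with AG-120, at a log2 fold change of -1.11 (SE 0.27, edgeR adjusted p = 0.0492), and lower in 3 of 3 AG120_Nutlin libraries. The call ended when any 1 library was left out, other than vehicle_Nutlin replicate 1 or 3, with adjusted p between 0.0525 and 0.223. It also ended with library totals in place of TMM (adjusted p = 0.0506) and with the 2 groups fitted alone (adjusted p = 0.293), and it stood with DESeq2, with voom weights and without the 3 libraries that stood apart. Without Nutlin the log2 fold change of E2F1 with AG-120 was -0.30 (SE 0.18, adjusted p = 0.716) with all libraries. Leaving out the 3 libraries that stood apart gave -0.34, which passed (adjusted p = 0.00701), and so did -0.34 with voom sample weights (adjusted p = 0.00204). The difference between the Nutlin responses, the interaction, was -0.81 (SE 0.32, adjusted p = 0.379), and -1.07 without vehicle_Nutlin replicate 3 (adjusted p = 0.0392).

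E2F2 (chromosome 1, 23832922 to 23857712), the second activator, was close to undetected with Nutlin. Its counts were 0, 3 and 2 in AG120_Nutlin and 2, 0 and 4 in vehicle_Nutlin libraries, against 426, 350 and 296 in AG120 and 429, 341 and 579 in vehicle libraries. On the CPM scale it averaged 0.0885 ± 0.0781 in AG120_Nutlin, 0.0923 ± 0.0863 in vehicle_Nutlin, 17.0 ± 1.33 in AG120 and 20.2 ± 1.14 in vehicle cells (SD, n = 3 each). A count of 0 in one of these libraries allows up to 0.181 CPM, counted as 3 reads. With counts pooled by group, E2F2 was 184-fold lower after Nutlin in AG-120 cells (95% interval 78.7 to 569) and 199-fold lower in vehicle cells (91.1 to 543). These intervals cover counting error only. The fitted log2 fold changes were -7.43 (adjusted p = 2.72e-09) and -7.56 (edgeR adjusted p = 1.96e-09), and between the Nutlin groups no difference could be seen at 5 and 6 reads in all.

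**Figure D2:**
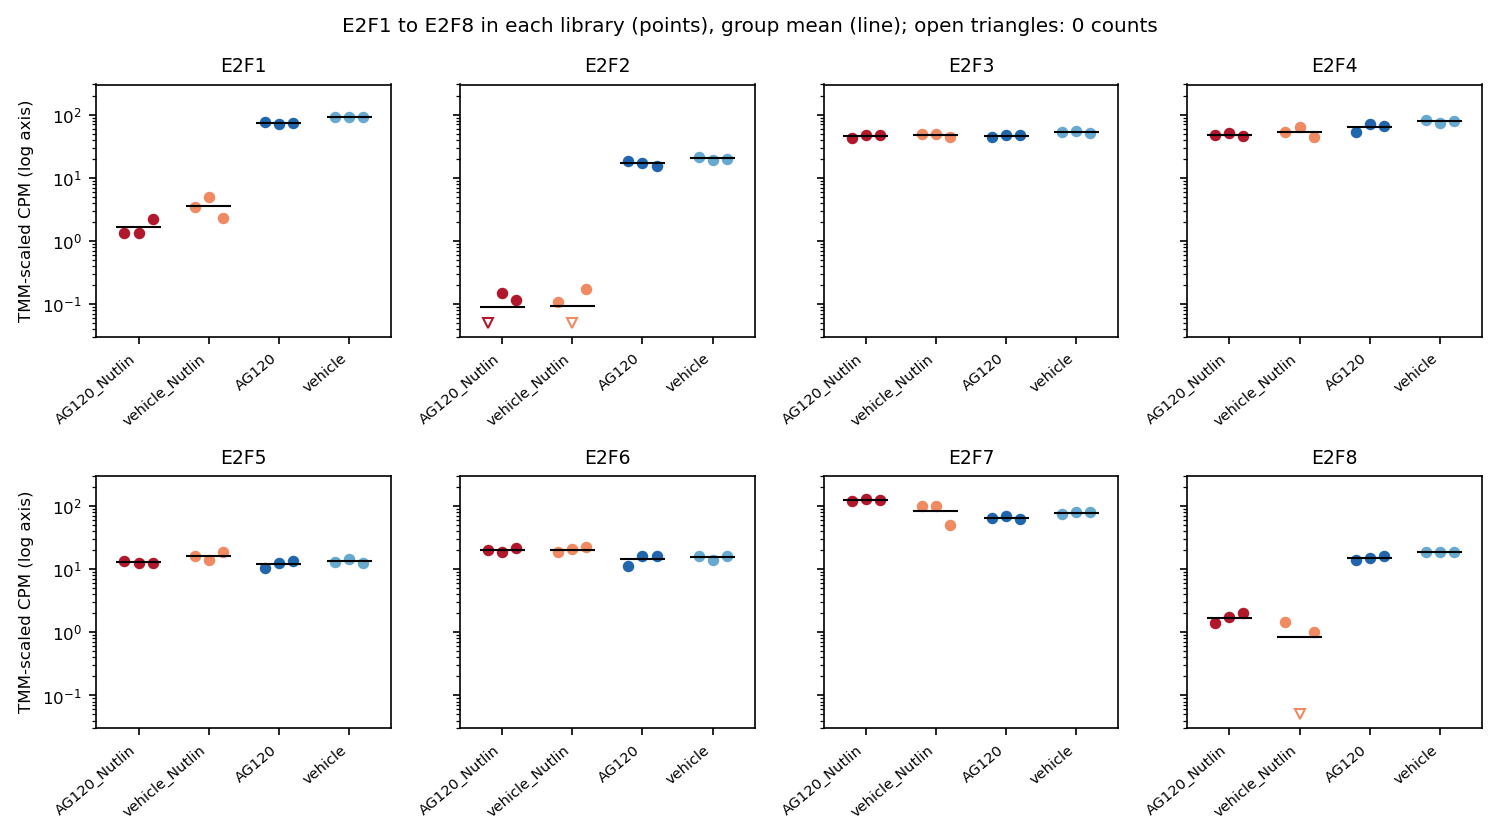
Each point is 1 library in TMM-scaled CPM on a log axis, the line is the group mean over 3 libraries, and open triangles at the foot mark 0 counts. E2F2 and E2F8 stand 8.77-fold to 199-fold lower with Nutlin by pooled counts, E2F1 stands 45.6-fold and 26.0-fold lower by the fit, E2F3 is nearly level at 43.2 to 54.6 CPM, and vehicle_Nutlin replicate 3 has the lowest E2F7 of all 12 libraries at 50.7 CPM.

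E2F3 (chromosome 6, 20402398 to 20493941), the third activator, was nearly level. It had 43.2, 46.8 and 47.7 CPM in AG120_Nutlin, 49.0, 49.6 and 44.2 CPM in vehicle_Nutlin, 44.3, 48.1 and 47.1 CPM in AG120 and 53.1, 54.6 and 50.4 CPM in vehicle libraries. The vehicle libraries were the highest and the other 3 groups overlapped. Its log2 fold change after Nutlin was -0.02 (SE 0.09, adjusted p = 0.876) in AG-120 cells and -0.15 (SE 0.09, edgeR adjusted p = 0.174) in vehicle cells. With library totals in place of TMM the value in vehicle cells was -0.23 and passed (adjusted p = 0.0452). Per length, E2F3 RNA was 10.4 to 17.1 times E2F1 RNA in AG120_Nutlin and 4.77 to 9.29 times in vehicle_Nutlin libraries, against 0.277 to 0.328 times in AG120 and 0.265 to 0.288 times in vehicle libraries. E2F3 therefore held most of the activator RNA that was left with Nutlin. The entry does not separate its long and short isoforms, which arise from different starts.

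E2F4 (chromosome 16, 67226072 to 67232821), the most abundant of the repressors E2F4 to E2F6, was modestly lower with Nutlin. It had 47.6, 51.7 and 45.0 CPM in AG120_Nutlin libraries, against 52.8, 71.9 and 65.5 CPM in AG120 libraries, with no overlap. In vehicle_Nutlin libraries it had 53.2, 62.6 and 44.8 CPM, against 82.0, 74.1 and 79.3 CPM in vehicle libraries, again with no overlap. The log2 fold change was -0.40 (SE 0.14, adjusted p = 0.0248) in AG-120 cells and -0.55 (SE 0.14, edgeR adjusted p = 0.00405) in vehicle cells. The call in AG-120 cells ended without AG120_Nutlin replicate 1 or 3 (adjusted p = 0.0670 and 0.0884) or without AG120 replicate 2 or 3 (adjusted p = 0.114 and 0.0663).

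E2F5 (chromosome 8, 86089460 to 86129387), the other partner of p107 and p130, did not pass in any comparison. It averaged 12.8 ± 0.681 CPM in AG120_Nutlin, 16.3 ± 2.26 CPM in vehicle_Nutlin, 12.1 ± 1.61 CPM in AG120 and 13.4 ± 0.829 CPM in vehicle cells (SD, n = 3 each). Its log2 fold change after Nutlin was 0.08 (SE 0.14, adjusted p = 0.637) in AG-120 cells and 0.29 (SE 0.14, edgeR adjusted p = 0.0884) in vehicle cells. Without vehicle_Nutlin replicate 2 the value in vehicle cells was 0.39 and passed (adjusted p = 0.0277). The end of the gene overlaps C8orf59, which held 877 counts over all libraries, and the sources do not state whether counting used strand, so reads of the pair may be mixed.

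E2F6 (chromosome 2, 11584501 to 11606297), the Polycomb-linked repressor, was slightly higher with Nutlin. AG120_Nutlin libraries had 20.4, 18.7 and 21.9 CPM, against 11.4, 15.9 and 16.3 CPM in AG120 libraries. In vehicle_Nutlin libraries it had 18.4, 20.6 and 22.2 CPM, against 16.1, 13.8 and 16.2 CPM in vehicle libraries, so neither pair of groups overlapped. The log2 fold change was 0.49 (SE 0.15, adjusted p = 0.0127) in AG-120 cells and 0.41 (SE 0.15, edgeR adjusted p = 0.0308) in vehicle cells. Without AG120_Nutlin replicate 3 the call in AG-120 cells ended (adjusted p = 0.0518). The call in vehicle cells ended without vehicle_Nutlin replicate 2 or 3 (adjusted p = 0.0553 and 0.0685), or without vehicle replicate 1, 2 or 3 (adjusted p = 0.0527, 0.114 and 0.0516). With all 3 libraries that stood apart left out, the value in vehicle cells was 0.23 (adjusted p = 0.133).

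E2F7 (chromosome 12, 77415027 to 77459360), an atypical repressor, was highest in AG120_Nutlin cells. It had 121, 132 and 126 CPM in AG120_Nutlin libraries and 101, 101 and 50.7 CPM in vehicle_Nutlin libraries. AG120 libraries had 65.7, 69.3 and 62.1 CPM, and vehicle libraries had 74.2, 81.5 and 80.7 CPM. All AG120_Nutlin libraries stood above all others, whereas vehicle_Nutlin replicates 1 and 2 stood above the vehicle libraries and replicate 3 below them. In AG-120 cells Nutlin raised E2F7 1.92-fold, a log2 fold change of 0.94 (SE 0.20, edgeR adjusted p = 0.00123), and the value lay between 0.90 and 0.98 when any 1 library was left out. In vehicle cells the log2 fold change was 0.09 (SE 0.20, adjusted p = 0.715).

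A single library decided the value of E2F7 in vehicle cells. Without vehicle_Nutlin replicate 3 the log2 fold change was 0.35 (edgeR adjusted p = 0.000888), and without replicate 1 or 2 of that group it was -0.06 in each case. The fit without the 3 libraries that stood apart gave 0.33 (adjusted p = 0.000688), with 1 vehicle_Nutlin library left that was assumed to vary like the other groups, and voom sample weights gave 0.32 (adjusted p = 0.00764). MDM2 was not low in that library, at 3484 CPM, and CDKN1A stood at 9400 CPM. In that library genes whose exons span 5000 to 6500 bases lay a median of 0.12 (log2) below the other vehicle_Nutlin libraries. E2F7 (5740 bases) was at -0.99 and E2F3 (5164 bases) at -0.16 on the same scale, and the part of transcript length in the low E2F7 value was not tested.

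With Nutlin, E2F7 was 1.5-fold higher with AG-120 than with vehicle, a log2 fold change of 0.59 (SE 0.20, edgeR adjusted p = 0.130), and higher in 3 of 3 AG120_Nutlin libraries. Without vehicle_Nutlin replicate 3 it was smaller and passed, at 0.33 (adjusted p = 0.0242), and the fit that left out all 3 libraries that stood apart gave 0.34 (adjusted p = 0.00738). AG-120 alone gave -0.26 (SE 0.20, adjusted p = 0.784), with the same value and an adjusted p of 0.0163 without the 3 libraries. The difference between the Nutlin responses was 0.85 (SE 0.28, adjusted p = 0.283) with all libraries. It was 0.58 (adjusted p = 0.00795) without vehicle_Nutlin replicate 3 and 0.60 without the 3 libraries. On all libraries it passed with voom sample weights (0.59, adjusted p = 0.00863) and without a filter (0.86, edgeR adjusted p = 0.00585). It did not pass with DESeq2 or with library totals. The AG-120 difference among Nutlin cells also passed with voom weights (0.37, adjusted p = 0.0220) and without a filter (0.58, edgeR adjusted p = 0.00319). Among the 8 members E2F7 was the only one with an interaction that passed in the fit without the 3 libraries.

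**Figure D3:**
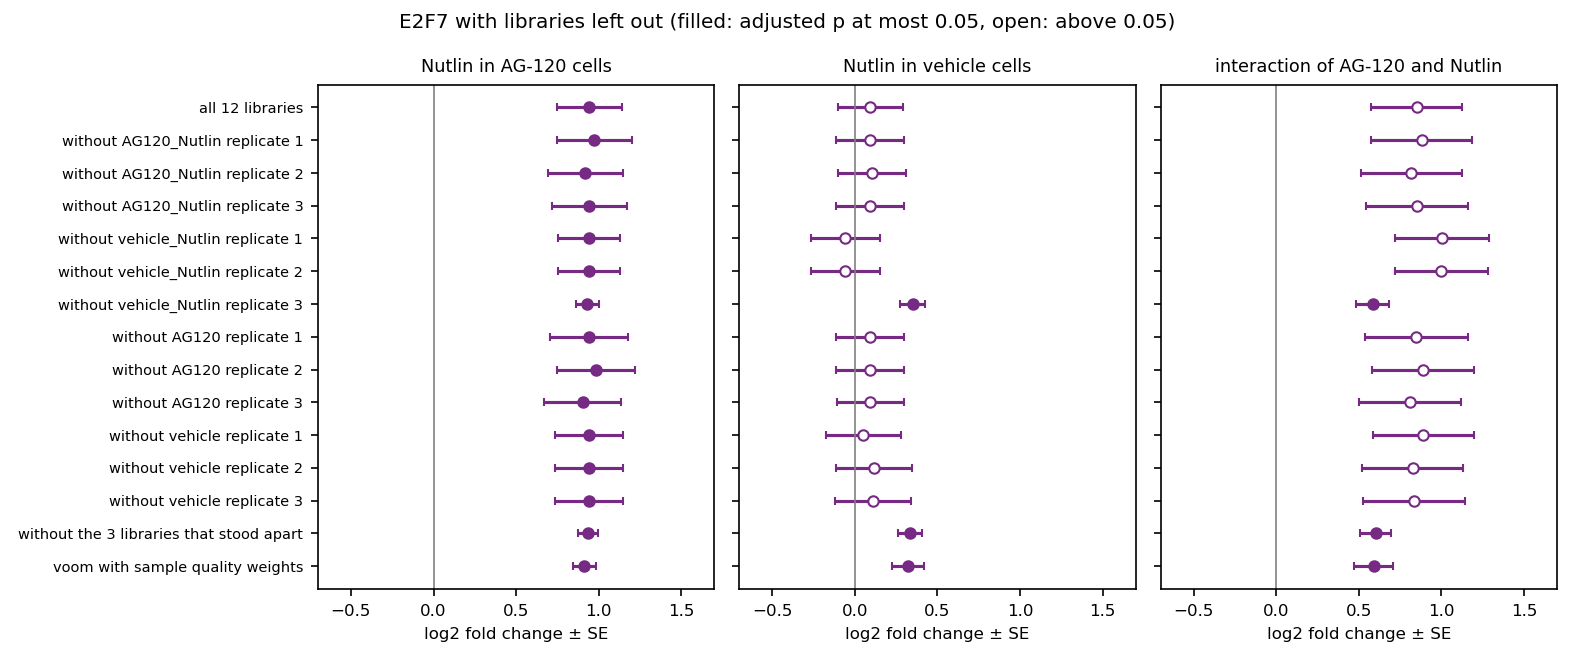
Rows give the E2F7 log2 fold change ± SE from 15 fits, with all 12 libraries, with each library left out, without the 3 that stood apart and with voom weights. Filled points passed at an adjusted p of 0.05. In AG-120 cells every point lies between 0.90 and 0.98, whereas the vehicle-cell value runs between -0.06 and 0.35 and passes without vehicle_Nutlin replicate 3.

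E2F8 (chromosome 11, 19245610 to 19263167), the other atypical repressor, fell with E2F1 and E2F2 and not with E2F7. Its values were 1.39, 1.73 and 2.00 CPM in AG120_Nutlin libraries, against 14.1, 15.0 and 16.1 CPM in AG120 libraries. In vehicle_Nutlin libraries they were 1.48, 0 and 1.03 CPM, against 19.0, 18.7 and 18.8 CPM in vehicle libraries. No Nutlin library overlapped one without Nutlin. The log2 fold change was -3.14 (SE 0.41, adjusted p = 2.79e-05) in AG-120 cells and -4.43 (SE 0.45, edgeR adjusted p = 2.69e-06) in vehicle cells. Vehicle_Nutlin replicate 2 held 0 E2F8 counts, where the mean of the other libraries of its group would give 20.9, and 0 counts allows up to 0.18 CPM. That library also stood out for RNAs without a poly(A) tail, with RMRP at 77.5, RPPH1 at 174 and RN7SK at 163 CPM, and their part in the E2F8 value was not tested. Without it the log2 fold change in vehicle cells was -3.91 (adjusted p = 1.46e-08). E2F8 with AG-120 among Nutlin cells had a log2 fold change of 0.97 (SE 0.51, adjusted p = 0.316), and 0.45 without that library (adjusted p = 0.213). Over the fits with any 1 library left out the value lay between 0.45 and 1.55. The difference between the Nutlin responses was 1.29 (SE 0.62, adjusted p = 0.471). Without a filter on low counts both passed in edgeR, at 0.96 (adjusted p = 0.0437) and 1.29 (adjusted p = 0.0486). Per length, E2F7 RNA was 43.2 to 59.6 times E2F8 RNA in AG120_Nutlin libraries, against 2.63 to 3.20 times in AG120 libraries.

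Counted together, Nutlin raised 2 members (E2F6 and E2F7) and lowered 4 (E2F1, E2F2, E2F4 and E2F8) in AG-120 cells. Of all genes tested there, 27% were called higher and 28.8% lower. In vehicle cells it raised 1 member (E2F6) and lowered the same 4, where 26.8% of all genes were called higher and 27.1% lower. The median member log2 fold change was -0.21 in AG-120 cells and -0.35 in vehicle cells, beside 0.0013 and -0.015 over all genes. E2F1, E2F2 and E2F8 lay far outside the middle range of all genes, whose quartiles were -0.61 and 0.56 in AG-120 cells and -0.60 and 0.51 in vehicle cells.

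AG-120 without Nutlin gave no called member with edgeR or with DESeq2 on all 12 libraries. At an unadjusted p below 0.05 there was 1 member (E2F4, log2 fold change -0.31) and 1254 genes (7.99% of all tested). Of all genes 0.051% were called higher and 0% lower. All 8 members had a negative value, between -0.32 (E2F8) and -0.09 (E2F6), with a median of -0.26, whereas 49.8% of all genes had a negative value and the median of all genes was 0. The sign of E2F6 turned without AG120 replicate 1, and the 8 genes are not replicates of the condition. These members share control libraries with the Nutlin response in vehicle cells. With voom sample weights E2F1 was called lower (-0.34, adjusted p = 0.00204), beside 601 of all genes called higher and 318 lower. Without the 3 libraries that stood apart E2F1 was at -0.34 and E2F7 at -0.26.

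AG-120 with Nutlin gave 1 member called lower (E2F1) and 0 called higher, where 1.93% of all genes were called lower and 0.433% higher. At an unadjusted p below 0.05 there were 3 members, E2F1 and E2F5 lower and E2F7 higher, and 3067 genes (19.5% of all tested). DESeq2 also called 0 members higher. The interaction gave 0 members in either direction with edgeR and with DESeq2, beside 0.0319% of all genes called higher and 0.331% lower. At an unadjusted p below 0.05 it gave 2 members, E2F1 (-0.81) and E2F7 (0.85), of opposite sign, and 1730 genes (11% of all tested).

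**Figure D4:**
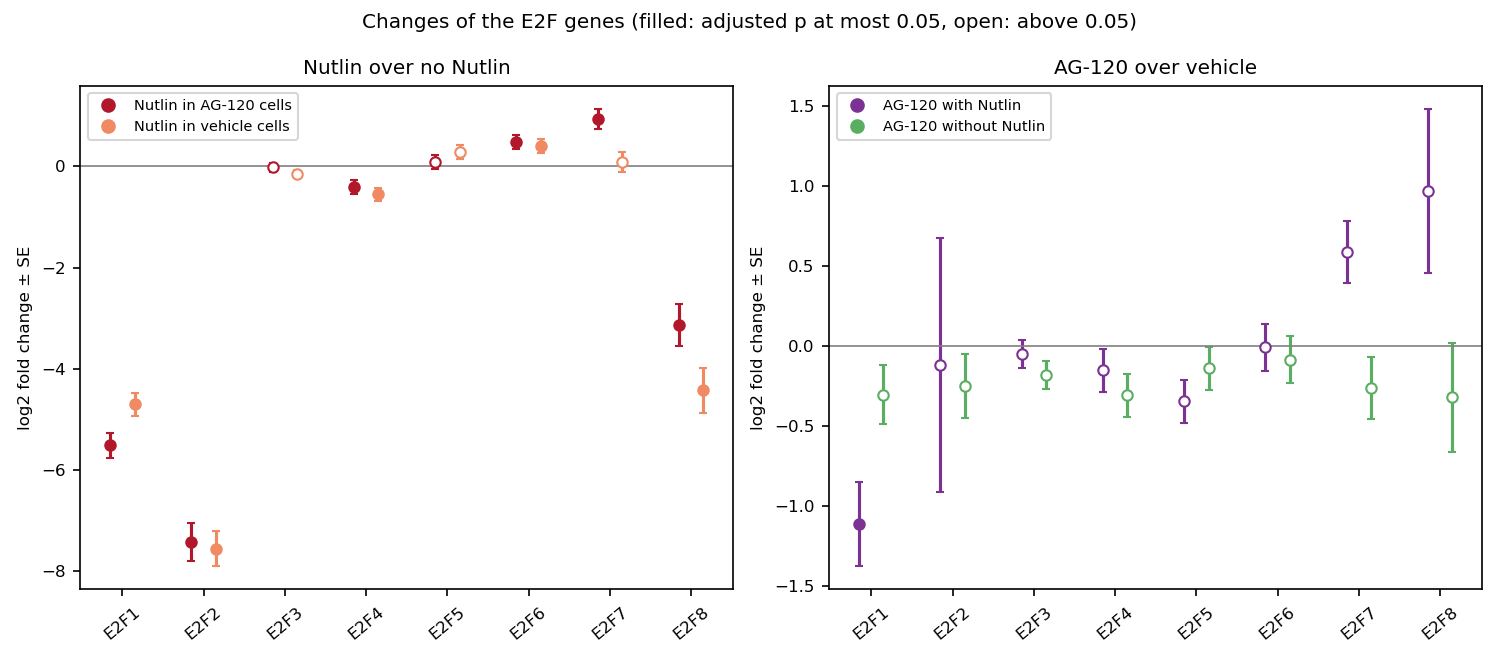
Points give the log2 fold change ± SE of each E2F gene from the edgeR fit of 12 libraries, for Nutlin over no Nutlin on the left and AG-120 over vehicle on the right. Filled points passed at an adjusted p of 0.05. E2F1, E2F2 and E2F8 lie between -7.56 and -3.14 with Nutlin, and E2F1 with Nutlin at -1.11 is the only filled point on the right.

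The partners of the E2F proteins changed with Nutlin in both backgrounds. Of the DP genes, TFDP1, the main dimer partner, averaged 81.1 ± 3.85 CPM in AG120_Nutlin against 232 ± 26.4 CPM in AG120 cells, and 91.4 ± 6.66 CPM in vehicle_Nutlin against 266 ± 8.80 CPM in vehicle cells (SD, n = 3 each). TFDP2 was lower as well, at -0.61 in AG-120 cells and -0.80 in vehicle cells on the log2 scale, and TFDP3 was at 0 counts in all libraries. Among the pocket proteins RB1 was higher (0.90 in AG-120 and 0.75 in vehicle cells) and so was RBL2 (1.22 and 1.06), which encodes p130 of resting cells. RBL1, which encodes p107 and is itself an E2F target, was lower (-2.64 and -2.94). RBL2 averaged 158 ± 2.50 CPM in AG120_Nutlin against 67.8 ± 2.57 CPM in AG120 cells, and 142 ± 4.25 CPM in vehicle_Nutlin against 68.0 ± 4.68 CPM in vehicle cells.

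MuvB, MYB and FOXM1 genes encode the complex that joins E2F4 and p130 in repression and B-MYB and FOXM1 in activation. In each background 6 of 7 tested genes fell and 0 rose, where 28.8% of all genes were called lower in AG-120 cells and 27.1% in vehicle cells. The median log2 fold change was -1.14 in AG-120 cells and -0.90 in vehicle cells. MYBL2, which encodes B-MYB, averaged 0.751 ± 0.218 CPM in AG120_Nutlin against 193 ± 24.9 CPM in AG120 cells, and 1.88 ± 0.209 CPM in vehicle_Nutlin against 232 ± 2.88 CPM in vehicle cells. FOXM1 was at -6.32 and -5.80, MYBL1 at -3.06 and -2.20, and the MuvB subunit LIN9 at -1.14 and -0.90 in AG-120 and vehicle cells. Between the Nutlin groups 2 of the 7 were called lower with AG-120, MYBL2 (-1.34, edgeR adjusted p = 0.00725) and MYBL1 (-1.07, adjusted p = 0.000899). The other 5 were not called, and 1.93% of all genes were called lower. MYBL2 rested on 40 reads in AG120_Nutlin and 112 reads in vehicle_Nutlin libraries.

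Upstream of RB, the G1 cyclin and kinase list counted 1 gene higher and 6 lower of 8 tested in AG-120 cells, and 1 higher and 5 lower in vehicle cells. Over all genes 27% were higher and 28.8% lower in AG-120 cells, and 26.8% and 27.1% in vehicle cells. CDK2, the kinase of S phase entry, was at -2.56 in AG-120 and -2.50 in vehicle cells, and its activating phosphatase CDC25A at -3.50 and -3.30. The E cyclins, which activate CDK2, fell too: CCNE2 was at -3.39 and -4.04 and CCNE1 at -1.57 and -0.99. With AG-120 among Nutlin cells CCNE1 was called lower (-0.71, edgeR adjusted p = 0.0257) and the other 7 tested genes were not called, where 1.93% of all genes were called lower. Of 4 tested CDK inhibitor genes CDKN1A was the only one called higher, at 4.52 in AG-120 and 4.47 in vehicle cells. CDKN2C, which encodes p18, was lower at -1.53 and -1.79. CDKN2D was at -0.27 (not called) and -0.76 (lower), and CDKN1B, which encodes p27, at -0.02 and -0.09 and not called in either. CDKN2A and CDKN2B, whose products p16 and p15 act on the cyclin D kinases, were at 0 counts in all 12 libraries.

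E2F target genes of S phase fell together after Nutlin. Of 30 tested, 28 fell and 1 rose in AG-120 cells (median log2 fold change -3.17), and 28 fell and 1 rose in vehicle cells (median -3.20). All-gene medians were near 0, with 28.8% and 27.1% of all genes called lower. TK1, a thymidine kinase, averaged 2.03 ± 0.357 CPM in AG120_Nutlin against 284 ± 11.5 CPM in AG120 cells, and 3.71 ± 0.450 CPM in vehicle_Nutlin against 333 ± 12.1 CPM in vehicle cells. Of the helicase genes MCM4 was at -2.85 and -3.21, MCM5 at -3.10 and -3.19 and MCM6 at -3.63 and -3.45. The riser was PCNA, the sliding clamp of DNA polymerases, at 1.01 and 0.80, and the gene called in neither was the thymidylate synthase TYMS, at 0.15 and -0.38. Both were named after their values had been seen. With AG-120 among Nutlin cells 2 of the 30 were called lower, TK1 (-0.88, adjusted p = 0.00823) and MCM6 (-0.44, adjusted p = 0.0485), and 0 higher, beside 1.93% of all genes lower and 0.433% higher. Without the 3 libraries that stood apart these counts were 6 lower and 1 higher, with 754 of all genes lower and 661 higher, and for the list this alternative was added after the data had been seen.

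**Figure D5:**
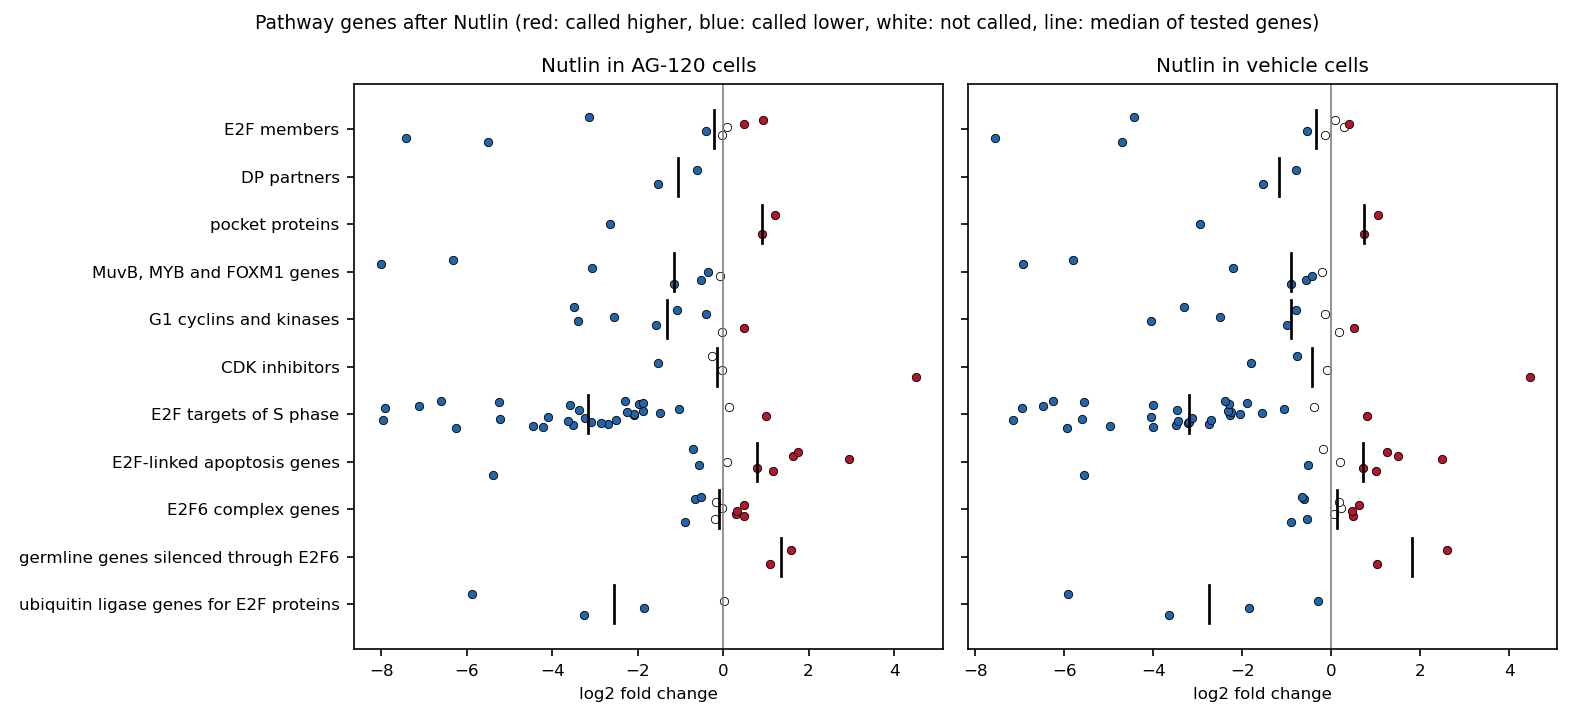
Each point is 1 tested gene of a pathway list, placed by its log2 fold change after Nutlin in AG-120 cells (left) and vehicle cells (right), red where called higher, blue where called lower and white where not called, with a line at the median. E2F targets of S phase have medians of -3.17 and -3.20 with PCNA as the red point, whereas the E2F-linked apoptosis genes have medians of 0.79 and 0.72.

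E2F-linked apoptosis genes moved in both directions. Of 9 tested, 5 rose and 3 fell in AG-120 cells, and 5 rose and 2 fell in vehicle cells. Since 27% of all genes were called higher and 28.8% lower in AG-120 cells, and 26.8% and 27.1% in vehicle cells, the fallers were near the share of all genes. TP73, which encodes p73 and is a known E2F1 target, averaged 0.406 ± 0.0475 CPM in AG120_Nutlin against 17.4 ± 3.66 CPM in AG120 cells, and 0.432 ± 0.223 CPM in vehicle_Nutlin against 19.5 ± 0.449 CPM in vehicle cells. BBC3 (PUMA), a promoter of cell death, was at 2.94 and 2.50, BCL2L11 (BIM) at 1.75 and 1.25, and APAF1, of the apoptosome, at 1.17 and 1.01. With AG-120 among Nutlin cells 1 gene of the list was called higher, BCL2L11 (0.40, edgeR adjusted p = 0.0478). Called lower was 1, BID (-0.60, adjusted p = 0.0285), which also promotes cell death and was named after its values had been seen. Over all genes 0.433% were called higher and 1.93% lower there. With only the groups compared 0 of all genes were called higher, so the BCL2L11 call ended.

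Genes of the E2F6 complex, a variant Polycomb complex, were called about as often as genes in general. Of 10 tested, 4 rose and 3 fell in AG-120 cells, and 3 rose and 4 fell in vehicle cells, with medians of -0.10 and 0.12, where 27% and 26.8% of all genes rose and 28.8% and 27.1% fell. RYBP was at 0.48 and 0.63, PCGF6, which is particular to this complex, at -0.88 and -0.91, CBX3 at -0.67 and -0.62 and WDR5 at -0.51 and -0.65. Of 7 germline genes known to be silenced through E2F6, mostly from work in mice, 2 were tested and both rose: MAEL by 1.6 and 2.60 and STAG3 by 1.09 and 1.03. MAEL stood at 1.62 ± 0.306 CPM in AG120_Nutlin against 0.535 ± 0.308 CPM in AG120 cells, and at 2.65 ± 0.949 CPM in vehicle_Nutlin against 0.427 ± 0.135 CPM in vehicle cells. The other 5 were too low to test in any group.

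Ubiquitin ligase genes whose products mark E2F proteins for breakdown were lower, 3 of 4 in AG-120 cells and 4 of 4 in vehicle cells, beside 28.8% and 27.1% of all genes. CDC20, an activator of the anaphase-promoting complex, was at -5.88 and -5.92, CCNF (cyclin F) at -3.26 and -3.64 and SKP2 at -1.85 and -1.85. FZR1, the other activator of that complex, was at 0.02 and not called in AG-120 cells and at -0.31 (adjusted p = 0.0396) in vehicle cells.

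For each member the 3 genes most alike in pattern were taken by the smallest root mean square difference of centred log2 CPM over the 12 libraries, among 11518 genes that reached a group mean of 5 CPM. For E2F1 they were NCAPH (0.21), BUB1B (0.28) and PEG10 (0.31), of which NCAPH is a condensin subunit and BUB1B a spindle checkpoint kinase. NCAPH had log2 fold changes of -5.31 and -4.68 after Nutlin in AG-120 and vehicle cells, beside -5.51 and -4.70 for E2F1. E2F2 lay closest to BIRC5 (0.34), KIFC1 (0.36) and CCNA2 (0.36), and E2F8 to BLM (0.57), C1orf116 (0.58) and FAM72B (0.59), which is a looser match. E2F3 lay closest to MCCC2, MTMR1 and USP12 (0.07 each), E2F4 to RNPS1 (0.10), HNRNPDL (0.10) and WDR5 (0.11), E2F5 to CLNS1A, SRI and NDUFB11 (0.08 each) and E2F6 to MRFAP1L1 (0.08), TVP23B (0.10) and TRAPPC3 (0.10). Small differences are easier to reach for genes that hardly vary.

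E2F7 lay closest to SPRY4 (0.12), SYVN1 (0.13) and BCL3 (0.13). These 3 genes were also low in vehicle_Nutlin replicate 3, at 45.8, 23.4 and 23.0 CPM, below the lowest of the other Nutlin libraries at 67.7, 49.3 and 43.9 CPM in the same order of genes. SPRY4, an inhibitor of receptor kinase signalling, had 86.7, 91.0 and 85.7 CPM in AG120_Nutlin libraries against 50.1, 48.7 and 49.1 CPM in AG120 libraries. Its log2 fold change between these groups was 0.83 (SE 0.14). All genes named as alike were picked over the same libraries, depth and preparation, so values close to those of the member follow from the choice. The likeness is a description and not a test.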

How the data were processed

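Poly(A) RNA-seq libraries of RBE cells (12, in 4 groups of 3) were analysed from the deposited table of raw counts per gene, which the authors did not normalize. Per the submitters' processing notes the tools were Partek, STAR, HTSeq and DESeq2 and the build hg19; their versions and roles, the gene annotation and the use of strand are not given in the sources used here. Groups came from the labels' treatments.

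With edgeR 4.0.16 in R 4.3.3, filterByExpr kept 15691 of 55773 entries, libraries were scaled by TMM, and glmQLFit took 12 libraries and 1 term per group. Comparisons were Nutlin in AG-120 cells, Nutlin in vehicle cells, AG-120 with and without Nutlin, and the interaction, each tested two-sided with glmQLFTest. P-values were adjusted by Benjamini-Hochberg over all genes within a comparison and called at 0.05. SE is the size of the log2 fold change divided by the root of F. The fit was run on simulated data in which few genes changed and every library had the same spread. That simulation does not cover the many genes changed with Nutlin or libraries of unequal spread. Library totals had a median of 19221201, and their size limits precision for E2F2 and E2F8 with Nutlin. Reads carry no molecular identifiers, so intervals and floors cover counting error only. RPKM divides TMM-scaled CPM by the union of exons in GENCODE v29 (GRCh38), which need not be the annotation counted. Gene coordinates are hg19 as deposited, with the stop moved by 1 base. Promoters are RefSeq's on GRCh38.p14 and were searched by exact match.

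Named genes were the members, MDM2, CDKN1A, 1 gene that is not reported here, all of each pathway list of up to 5 genes and otherwise its 4 tested genes with the smallest adjusted p for Nutlin in vehicle cells, and the 3 genes most alike to each member. RMRP, RPPH1 and RN7SK were named after their values had been seen. The members, lists and tests were chosen with earlier results of these data known, so no pattern here is independent support for them. Alternatives were DESeq2 1.42.0, other size factors, other filters, the replicate number as a block, only the groups compared, limma 3.58.1 voom sample weights, and leaving out libraries.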

Additional observations from a re-analysis of the deposited data

How the results depend on the processing

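The falls of E2F1, E2F2 and E2F8 after Nutlin in AG-120 and in vehicle cells, of E2F4 in vehicle cells, and the rise of E2F7 in AG-120 cells kept their direction and passed under all alternatives run. What depth limits is E2F2, at 5 and 6 reads in the Nutlin groups, and E2F8, with 52 reads in vehicle_Nutlin and 92 in AG120_Nutlin. The cause of the changes below was not tested, apart from those that follow from fewer samples or another set of genes. An alternative with 1 vehicle_Nutlin library left assumed its spread.

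Members called higher for Nutlin in vehicle cells numbered 0 with library totals and without a filter and 2 with voom weights. Members called lower for AG-120 without Nutlin numbered 2 without the 3 libraries that stood apart and 1 with voom weights. For AG-120 with Nutlin 2 members were higher without a filter and 1 without the 3 libraries or with voom weights, and 0 were lower with library totals, the replicate block or only the groups compared. For the interaction 2 were higher without a filter (E2F7 and E2F8) and 1 without the 3 libraries or with voom weights.

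Over all genes, AG-120 without Nutlin called 85 higher and 23 lower with DESeq2, 73 and 31 without a filter, 24 and 5 with only the groups compared, 610 and 297 without the 3 libraries, and 601 and 318 with voom weights, and it called 2 lower with library totals or the filter of 1 CPM. AG-120 with Nutlin called 263 higher and 640 lower with DESeq2, 594 and 678 without a filter, 0 and 14 with only the groups compared, 661 and 754 without the 3 libraries, and 376 and 603 with voom weights. The interaction called 26 higher and 197 lower with DESeq2, 80 and 203 without a filter, 201 and 456 without the 3 libraries, and 75 and 358 with voom weights.

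With the replicate number as a block AG-120 without Nutlin called 4 genes higher, AG-120 with Nutlin 33 higher and 178 lower, and the interaction 2 higher and 30 lower, and E2F1 for AG-120 with Nutlin had an adjusted p of 0.0891. Samples with the same number did not deviate together: 1 of 18 pairs had a correlation over 0.1 (lowest -0.22, highest 0.12). This cannot show whether samples of the same number were prepared together, which the labels do not say. The block changed no other member's call.

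Changes of sign, none of a called value, were E2F6 for AG-120 with Nutlin at 0.00066 with library totals, 0.15 without the 3 libraries and 0.077 with voom weights. Others were E2F6 for AG-120 without Nutlin at 0.062 without the 3 libraries and 0.036 with voom weights, E2F5 for Nutlin in AG-120 cells at -0.031 without the 3 libraries, E2F2 for AG-120 with Nutlin at 0.014 and E2F4 for the interaction at -0.0072 with voom weights.

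With each library left out in turn, members called numbered 0 to 1 higher for Nutlin in vehicle cells, 1 to 2 higher for Nutlin in AG-120 cells, 0 to 1 higher and 0 to 1 lower for AG-120 with Nutlin, 0 to 1 higher and 0 to 1 lower for the interaction. Of all genes, 3577 to 4658 were called higher for Nutlin in vehicle cells and 3706 to 4976 for Nutlin in AG-120 cells. All genes called numbered 1 to 202 higher and 0 to 43 lower for AG-120 without Nutlin, 5 to 415 higher and 56 to 633 lower for AG-120 with Nutlin, 1 to 37 higher and 22 to 207 lower for the interaction.
Log2 fold changes that took both signs over these fits were E2F3 for Nutlin in AG-120 cells -0.054 to 0.025, E2F2 for AG-120 with Nutlin -0.71 to 0.66, E2F6 for AG-120 with Nutlin -0.077 to 0.058, E2F2 for the interaction -0.46 to 0.91, E2F7 for Nutlin in vehicle cells -0.059 to 0.35, E2F5 for Nutlin in AG-120 cells -0.025 to 0.16, E2F6 for AG-120 without Nutlin -0.18 to 0.065, E2F6 for the interaction -0.078 to 0.17.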
